A study of Homo sapiens with 15 samples.

Results

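The interferon-stimulated genes described here are 42 named genes that cells switch on when interferon reaches its receptors. They were taken as the rows of the deposited FPKM table (fragments relative to transcript length and to the library total) whose symbol is one of the 42. All 42 were found among 24880 rows. Of these, 32 reached 1 FPKM in 3 or more of the 15 libraries and were tested, among 12467 rows tested in all. The cells were HK-2, an immortalised human line from the renal proximal tubule, wild type per the labels. Each of 5 groups held 3 polyadenylated RNA libraries. The TGFb+FT895 groups received TGF-beta at 2 ug/ml together with FT895, an inhibitor of the histone deacetylase HDAC11, for 1 h or for 12 h. The TGFb groups received the same TGF-beta with the DMSO vehicle for 1 h or for 12 h. Mock cells received PBS and carry the label 0 h, so they differ from the TGFb groups in time and in DMSO as well as in TGF-beta. No group received FT895 by itself, and the sources used here give no FT895 dose. Nothing in the labels states that the libraries of a group were separate cultures, so p-values describe the spread between these libraries alone.

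Type I and type III interferons signal through JAK1 and TYK2 to a complex that holds STAT2 and IRF9 and binds the interferon-stimulated response element (ISRE) in the promoters of this family. Type II interferon acts mainly at gamma-activated sites (GAS), and IRF1 extends that response. The products sense and degrade viral RNA, block translation and budding, conjugate the ubiquitin-like protein ISG15 and load peptides on MHC class I. Tubule epithelial cells carry this machinery. HDAC11 removes fatty-acyl groups from proteins. In other human and mouse cells one such protein, SHMT2, works with the BRISC deubiquitinase complex on the receptor chain IFNAR1. That step acts on protein, which RNA libraries do not measure.

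Markers of the cell line were partly present. PAX8, GGT1, MME, CDH2, KRT8, KRT18 and KRT19 were tested, which is 7 of 12 genes listed for tubule epithelium. The list was not limited to genes specific to the proximal tubule. LRP2 was listed at 0 in all 15 libraries, and CUBN, ANPEP, PAX2 and AQP1 stayed at or under 0.465 FPKM. Of the 7, 2 were up and 4 down at 12 h against mock, where 14.2% of all tested rows were called up and 24.5% down. PAX8, a transcription factor of renal epithelium, averaged 25.1 ± 1.102 FPKM in TGFb 12 h and 53.4 ± 2.22 FPKM in mock (SD, n = 3 each). The keratin KRT19 averaged 15.6 ± 0.685 FPKM in TGFb 12 h and 45.6 ± 2.47 FPKM in mock, and the cadherin CDH2 163 ± 2.38 FPKM in TGFb 12 h and 93.97 ± 0.441 FPKM in mock (SD, n = 3 each). The part of these marker changes in the 12 h results was not tested. The summed level of the 8 leukocyte markers was 65.3 to 87.7 FPKM, carried by CD68 and CD74, with CD3E listed at 0 and PTPRC at no more than 0.0142 FPKM. The 3 endothelial markers summed to at most 0.0256 FPKM, and the 4 fibroblast markers to 5.29 to 10.6 FPKM, nearly all from LUM. LUM had a log2 change of -0.71 at 12 h against mock (limma adjusted p = 0.00179). PDGFRB, which did not pass the filter, went the other way, with 0.575 ± 0.0911 FPKM in TGFb 12 h and 0.0805 ± 0.0248 FPKM in mock (SD, n = 3 each). Read depth cannot be read from FPKM. One library, TGFb 1 h replicate 1, stood apart, with a summed FPKM of 434520 (386532 to 406560 in the other 14) and a residual SD of 0.211 on the log2 scale (0.107 to 0.156 in the others). In that library the deviation of a gene from its group mean fell with transcript length (Spearman's rho -0.486 over 11536 genes, which are not independent replicates). Among the tested members it was the highest of its group for 15, with a median transcript length of 2370 bases, and the lowest for 13, with a median of 5870 bases.

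The family was transcribed in these cells at levels that differed widely between members. BST2, which tethers budding virions to the cell surface, was the highest member with a mean of 123 FPKM over all libraries and a range of 108 to 168 FPKM. ADAR, which edits adenosines in double-stranded RNA, followed at 49.8 FPKM (36.2 to 54.4), and the immunoproteasome subunit PSMB8 at 33.98 FPKM (28.2 to 44.2). The range of BST2 met that of no other member, while those of ADAR and PSMB8 overlapped. ISG15, the ubiquitin-like modifier, came next at 19.1 FPKM (13.8 to 27.3), then the immunoproteasome subunit PSMB9 at 17.3 FPKM (14 to 21.8) and OAS3, a sensor that makes the activator of RNase L, at 12.7 FPKM (8.62 to 14.3). The ranges of ISG15, PSMB9 and OAS3 overlapped, so their order is not fixed by these libraries.

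At the other end, 10 members did not pass the filter. XAF1, a pro-apoptotic interferon target, was listed at 0 in all 15 libraries. OAS2, a relative of OAS3, was listed at 0 in 11 libraries, the GTPase MX2 in 9, IFITM2 in 9 and OASL in 4, and none of these exceeded 0.275 FPKM. MX1, the GTPase that traps viral nucleocapsids, ranged over 0.0953 to 0.3202 FPKM, the exonuclease ISG20 over 0.0637 to 0.592 FPKM and IFI27, a small membrane protein, over 0.132 to 0.534 FPKM. SAMD9L, an antiviral relative of SAMD9, ranged over 0.339 to 0.64 FPKM, and USP18, which removes ISG15 and restrains the type I receptor, over 0.399 to 0.801 FPKM. MX1 and IFI27, which rise steeply under interferon in many cell types, were therefore both under 1 FPKM in cells whose lowest BST2 level was 108 FPKM. The summed level of all 42 members lay between 355 and 436 FPKM, with BST2 the main contributor.

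**Figure D1:**
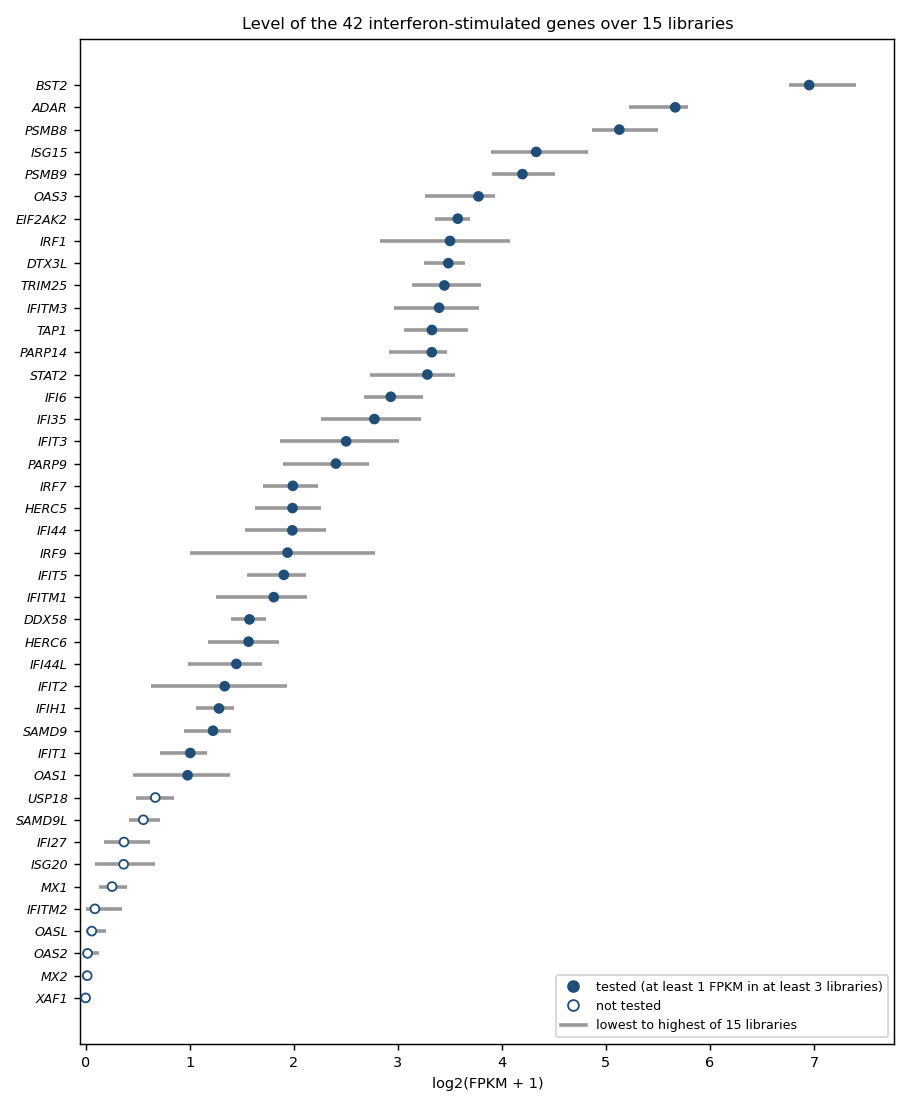
Level of each of the 42 interferon-stimulated genes on the log2(FPKM + 1) scale (horizontal axis), ordered by mean. Points are means over 15 libraries, filled where the gene was tested, and grey bars run from the lowest to the highest library. BST2 stands above all others, and the 10 open points at the bottom did not pass the filter.

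RefSeq promoter windows on GRCh38.p14, each running from 250 bases before to 50 bases after the start, were available for 35 of the 42 members. IFIT2, IRF7, OAS2, OASL, IFITM2, MX2 and USP18 had none. The ISRE letters, GAAA followed by 2 bases of any kind and another GAAA, searched on both strands with overlapping matches counted, occurred in 23 of the 35 members (65.7%), against 4.38% of the 27305 genes in the table. The GAS letters TTCNNNGAA occurred in 11 of 35 members (31.4%), against 9.38% of all genes. These shares describe the letters in the windows and nothing more. Genes with several annotated starts have several windows (46 windows for the 35 members), and a gene counts once if any of its windows held the letters. By that count 20 of 30 members that passed the filter held the ISRE letters, and 3 of 5 that did not pass it.

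FT895 moved no member past the threshold at either time. At 1 h, TGFb+FT895 against TGFb, limma with Benjamini-Hochberg adjustment over all tested rows called 0 of 32 members, against 0.0722% of all rows. Without adjustment 5 members (EIF2AK2, IFITM1, IFI6, IFI35 and PARP14) had a p under 0.05, which is 15.6% of members beside 13.8% of all rows. At 12 h limma called 0 of 32 members against 0.016% of all rows, and 2 members (IRF1 and TAP1) had an unadjusted p under 0.05, or 6.25% beside 6.15% of all rows. The difference between the FT895 effects at 12 h and at 1 h was also called for 0 of 32 members, against 0.168% of all rows (0.144% up and 0.0241% down). An unadjusted p under 0.05 was found for 4 of 32 members, beside 7.84% of all rows. The median log2 difference over members was 0.09 at 1 h, where that of all tested rows was 0.04, and -0.02 at 12 h, where that of all rows was 0.01.

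The intervals bound how large an FT895 effect these libraries leave room for on the log2(FPKM + 1) scale. That scale understates the fold of low genes. For members near 1 FPKM, such as IFIT1 and OAS1 (means over all libraries 1.01 and 0.973 FPKM), the same bounds leave room for larger folds. The 95% confidence interval of the log2 difference lay within 0.5 on either side of 0 for 27 of 32 members at 1 h and for 31 of 32 at 12 h. At 1 h the exceptions were IRF9, IFITM1, IFI6, IFI35 and IFI44. IFITM1, a membrane protein that blocks viral fusion, had the largest positive difference, with 3.14, 2.66 and 2.403 FPKM in TGFb+FT895 1 h against 2.08, 1.39 and 1.96 FPKM in TGFb 1 h. All 3 libraries with FT895 were above the 3 without, with a log2 difference of 0.42 (95% confidence interval 0.15 to 0.68; limma adjusted p = 0.2). IFI35, a cytosolic partner of NMI, had the most negative one, with 5.67, 5.53 and 8.13 FPKM in TGFb+FT895 1 h against 8.33, 7.71 and 8.14 FPKM in TGFb 1 h. One library with FT895 lay inside the TGFb range and the other two lay below it, and the log2 difference was -0.30 (limma adjusted p = 0.265).

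At 12 h the smallest adjusted p among members belonged to TAP1, the peptide transporter of the MHC class I pathway. TAP1 had 10.4, 8.71 and 9.94 FPKM in TGFb+FT895 12 h against 11.7, 11.3 and 10.8 FPKM in TGFb 12 h, groups that did not overlap, with a log2 difference of -0.20 (95% confidence interval -0.36 to -0.05; limma adjusted p = 0.629). IRF9, the DNA-binding partner of STAT2, had the largest difference at 12 h, -0.61 on the log2 scale, and its groups did not overlap either. It was the only member whose interval at 12 h reached past 0.5, at -1.36 to 0.13 (limma adjusted p = 0.887). AL136295.5, which shares 48.4% of the exonic bases of IRF9 on the same strand, went the other way without overlap. It had 1.57, 2.79 and 1.76 FPKM in TGFb+FT895 12 h against 1.42, 0.994 and 0.74 FPKM in TGFb 12 h. How reads were split between these genes was not tested, so the IRF9 difference is uncertain. TGFb 1 h replicate 1, the library that stood apart, moved with the 1 h comparison. Over 11536 genes its log2 differences had a Spearman's rho of 0.373 with transcript length, and of -0.01 once it was left out. No member was called without that library either. A fit that weights libraries by their spread called 3 members at 1 h (IFITM1 and PARP14 up, IFI35 down) and 1974 rows in all, and none of the members at 12 h.

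**Figure D2:**
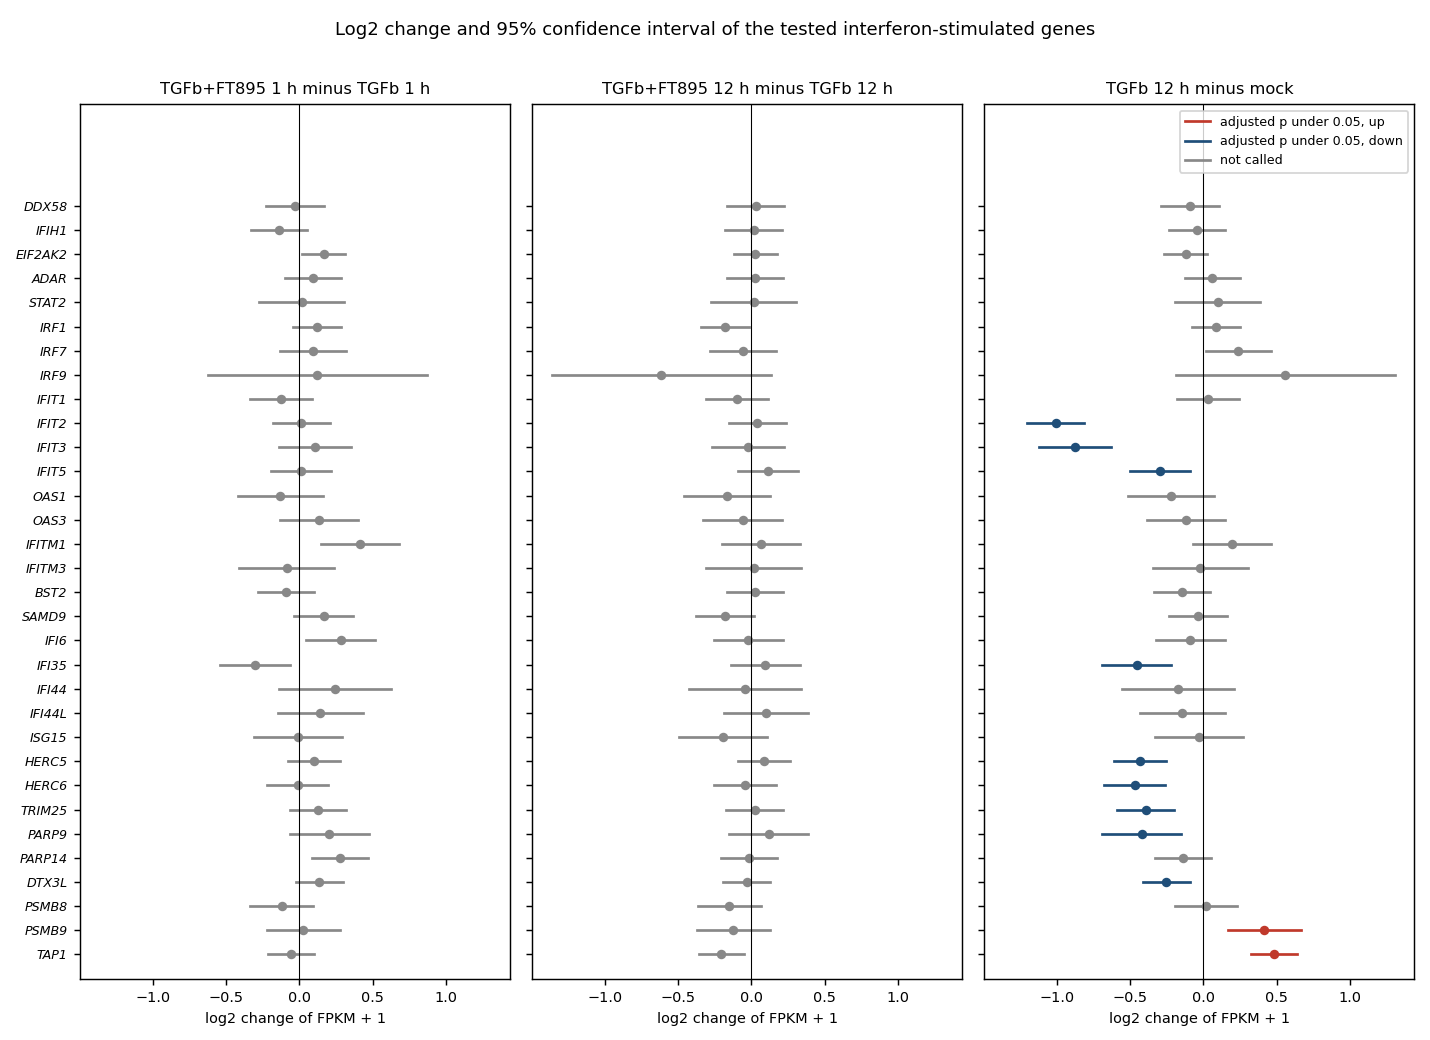
Log2 difference (points) with its 95% confidence interval (bars) for the 32 tested interferon-stimulated genes, grouped by role, in 3 comparisons on the log2(FPKM + 1) scale. In both FT895 panels every gene is grey, that is not called, while in TGFb 12 h against mock 9 genes are called down and 2 up.

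Some members differed between mock, TGFb 1 h and TGFb 12 h, in both directions. TGF-beta cannot be told apart from time in culture here. At 1 h against mock, limma called 3 of 32 members, 1 up and 2 down, or 9.38% against 8.98% of all tested rows (3.7% up and 5.28% down). At 12 h against mock it called 11 of 32, 2 up and 9 down, or 34.4% against 38.6% of all rows (14.2% up and 24.5% down). At 12 h against 1 h it called 14 of 32, 4 up and 10 down, or 43.8% against 41% of all rows (16.8% up and 24.2% down). The shares called were thus near those of all rows in each of the 3 comparisons. The median log2 change of members at 12 h against mock was -0.10, where that of all tested rows was -0.08. The 3 comparisons share libraries, so their counts are not independent. In bulk RNA, fewer cells with a transcript and less transcript per cell cannot be told apart.

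The direction of calls at 12 h against mock depended in part on the scaling of libraries. Under the deposited scaling 36.7% of all calls were up, under median-of-ratios scaling 52.3% and under quantile normalization 46.9%. Members went with it, at 3 up and 7 down under median-of-ratios scaling and 3 up and 8 down under quantile normalization. DTX3L and IFIT5 lost their calls under median-of-ratios scaling (adjusted p = 0.0604 and 0.0574), IFIT5 also under quantile normalization (adjusted p = 0.0621), and IRF7 gained one under both (0.30 and 0.31 on the log2 scale). No member called under the deposited scaling or under either of these changed sign, and signs of uncalled members were not compared.

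Among the transcription factors, IRF1 was high at 1 h and back near the mock level at 12 h. In TGFb+FT895 cells IRF1 had 15.9, 15.3 and 15.6 FPKM at 1 h and 7.79, 6.42 and 6.099 FPKM at 12 h. It had 7.67, 7.06 and 6.98 FPKM in mock cells, 13.3, 14.6 and 14.97 FPKM in TGFb 1 h and 7.55, 7.97 and 7.73 FPKM in TGFb 12 h. Every 1 h library, with or without FT895, lay above every mock and 12 h library. IRF1 rose by 0.89 on the log2 scale at 1 h against mock (SE 0.076; limma adjusted p = 2e-06), and at 12 h against 1 h the log2 change was -0.80 (adjusted p = 1.27e-06). Neither call was lost when any 1 of the 15 libraries was left out. The gene lies at chr5:132481609-132490798 on the minus strand (GENCODE v29, GRCh38) and shares 22% of its exonic bases with C5orf56 on the other strand, whose reads cannot be told apart from its own without a stated strand. Its promoter window, chr5:132490724-132491023 on the minus strand, is shown because IRF1 was the only member called up at 1 h, and it held 1 GAS match, in capitals, at -124 to -116 relative to the start, and no ISRE match.
IRF1: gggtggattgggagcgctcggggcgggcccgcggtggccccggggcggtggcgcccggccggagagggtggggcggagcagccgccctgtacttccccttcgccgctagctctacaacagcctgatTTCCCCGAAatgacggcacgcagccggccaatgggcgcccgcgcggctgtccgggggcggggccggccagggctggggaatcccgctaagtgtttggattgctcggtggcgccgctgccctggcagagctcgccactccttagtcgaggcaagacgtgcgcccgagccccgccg

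The other signal-carrying members behaved differently. IRF7, which amplifies type I interferon, averaged 3.46 ± 0.346 FPKM in TGFb 12 h and 2.55 ± 0.278 FPKM in TGFb 1 h (SD, n = 3 each), a log2 change of 0.33 (limma adjusted p = 0.0212). That call was lost without TGFb 1 h replicate 1 (adjusted p = 0.0715), TGFb 12 h replicate 1 (0.073) or TGFb 12 h replicate 3 (0.0671). STAT2, which pairs with IRF9, averaged 9.63 ± 0.977 FPKM in TGFb 12 h and 8.92 ± 0.224 FPKM in mock (SD, n = 3 each) and was not called. IRF9 had 3.23, 2.37 and 2.096 FPKM in TGFb+FT895 1 h and 2.68, 1.38 and 2.97 FPKM in TGFb+FT895 12 h. It had 2.205, 1.72 and 3.48 FPKM in mock, 5.87, 1 and 1.497 FPKM in TGFb 1 h and 3.76, 3.63 and 4.67 FPKM in TGFb 12 h, with a spread at 1 h that no other group showed. Left out of the fit, the high 1 h library (replicate 1) gave IRF9 a log2 change of 1.16 at 12 h against 1 h (limma adjusted p = 0.00131), where the full fit did not call it. IRF9 shares 48.4% of its exonic bases with AL136295.5 on the same strand, and AL136295.5 had 1.05, 2.99 and 2.298 FPKM in the same TGFb 1 h libraries, lowest where IRF9 was highest. The level of IRF9 is therefore uncertain.

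The IFIT family, RNA-binding proteins that hold back translation of foreign transcripts, held the largest falls among members at 12 h against mock. Of its 4 tested members 3 were down at 12 h against mock (IFIT2, IFIT3 and IFIT5) and 1 (IFIT1) was not called, where 24.5% of all tested rows were called down. IFIT2 reached 1 FPKM in 9 libraries, all of them mock or 1 h, so it passed the filter only through groups where it was high. The members were also chosen with earlier results of these data known, so the count is a description only. In TGFb+FT895 cells IFIT2 had 1.94, 1.75 and 1.796 FPKM at 1 h and 0.834, 0.812 and 0.688 FPKM at 12 h. IFIT2 had 2.43, 2.84 and 2.19 FPKM in mock, 1.83, 1.72 and 1.85 FPKM in TGFb 1 h and 0.804, 0.842 and 0.551 FPKM in TGFb 12 h. The 3 times did not overlap, and at each time the FT895 libraries overlapped those of TGFb alone. IFIT2 fell by 1.01 on the log2(FPKM + 1) scale at 12 h against mock (SE 0.091; limma adjusted p = 6.32e-07) and by 0.70 at 12 h against 1 h (adjusted p = 3.14e-05). The scale understates the fold of a gene near 1 FPKM. Its call at 1 h against mock (log2 change -0.31, adjusted p = 0.0483) was lost in 13 of 15 omissions of 1 library, with adjusted p up to 0.171.

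IFIT3, which binds IFIT1 and stabilises it, followed IFIT2. In TGFb+FT895 cells IFIT3 had 5.54, 5.66 and 5.23 FPKM at 1 h and 3.42, 3.09 and 2.72 FPKM at 12 h. It had 7.06, 5.83 and 6.902 FPKM in mock, 5.6, 4.33 and 5.18 FPKM in TGFb 1 h and 3.96, 2.91 and 2.64 FPKM in TGFb 12 h. All 12 h libraries were below all others, and the log2 change was -0.87 at 12 h against mock (SE 0.12; limma adjusted p = 3.02e-05) and -0.54 at 12 h against 1 h (adjusted p = 0.00186). Both IFIT2 and IFIT3 kept their 12 h calls in every omission of 1 library. IFIT5 averaged 2.302 ± 0.477 FPKM in TGFb 12 h and 3.03 ± 0.132 FPKM in mock (SD, n = 3 each), a log2 change of -0.30 (adjusted p = 0.0238) that was lost without mock replicate 1 (0.0773), mock replicate 2 (0.0577), TGFb 12 h replicate 2 (0.116) or TGFb 12 h replicate 3 (0.084). IFIT1 averaged 1.15 ± 0.112 FPKM in TGFb 12 h and 1.11 ± 0.0363 FPKM in mock (SD, n = 3 each), with a log2 change of 0.03 (95% confidence interval -0.18 to 0.24). The 4 genes are neighbours on chromosome 10, with IFIT2 at chr10:89283694-89309276 and IFIT3 at chr10:89327894-89340971, both on the plus strand. One of the 2 IFIT3 windows, chr10:89327747-89328046 on the plus strand, is shown as that of a gene that fell at 12 h, and its 2 ISRE matches, in capitals as their reverse complement, lie at -156 to -147 and -122 to -113. The windows of IFIT1 and IFIT5 held the letters as well, 2 matches and 3 matches.
IFIT3: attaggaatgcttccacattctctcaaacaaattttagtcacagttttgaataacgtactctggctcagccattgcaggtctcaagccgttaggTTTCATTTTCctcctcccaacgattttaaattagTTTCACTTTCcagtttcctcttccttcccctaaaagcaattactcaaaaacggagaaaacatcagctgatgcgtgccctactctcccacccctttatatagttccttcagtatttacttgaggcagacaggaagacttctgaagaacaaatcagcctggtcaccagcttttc

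Of the 4 members grouped as sensors and enzymes that bind double-stranded RNA (DDX58, IFIH1, EIF2AK2 and ADAR), 1 was called, in 1 comparison. DDX58, which encodes the sensor RIG-I, averaged 1.85 ± 0.0596 FPKM in TGFb 12 h and 2.04 ± 0.0902 FPKM in mock (SD, n = 3 each), and IFIH1, the sensor MDA5, averaged 1.51 ± 0.164 FPKM in TGFb 12 h and 1.58 ± 0.0916 FPKM in mock (SD, n = 3 each). Neither was called in any comparison, nor was EIF2AK2, the kinase PKR that halts translation on double-stranded RNA. ADAR had 49.3, 45.7 and 47.4 FPKM in TGFb+FT895 1 h and 53.3, 54.4 and 52.8 FPKM in TGFb+FT895 12 h. It had 51.3, 50.3 and 49.4 FPKM in mock, 36.2, 50.9 and 47.4 FPKM in TGFb 1 h and 52.4, 52.6 and 52.8 FPKM in TGFb 12 h. Its call up at 12 h against 1 h (log2 change 0.24, limma adjusted p = 0.0426) was lost in 13 of 15 omissions of 1 library. The low 1 h value is from TGFb 1 h replicate 1, without which the log2 change was 0.10 (adjusted p = 0.0943).

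In the OAS family, OAS3 had 12.2, 13.2 and 14.05 FPKM in TGFb+FT895 1 h and 12.1, 11.8 and 11.99 FPKM in TGFb+FT895 12 h. It had 13.8, 12.97 and 14.3 FPKM in mock, 8.62, 14.3 and 13.5 FPKM in TGFb 1 h and 12.3, 12.6 and 12.6 FPKM in TGFb 12 h, and no comparison was called. The lowest value, 8.62 FPKM, is again that of TGFb 1 h replicate 1. OAS1 averaged 0.781 ± 0.0827 FPKM in TGFb 12 h and 1.302 ± 0.321 FPKM in TGFb 1 h (SD, n = 3 each), a log2 change of -0.36 (limma adjusted p = 0.0468) that was lost in 9 of 15 omissions of 1 library, most of all without TGFb 1 h replicate 1 (adjusted p = 0.168). OAS1 reached 1 FPKM in 6 libraries, all of them mock or 1 h, so it passed the filter only through groups where it was high.

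Members that act at membranes were split. BST2 had 124, 130.3 and 134 FPKM in TGFb+FT895 1 h and 108, 115 and 114 FPKM in TGFb+FT895 12 h. It had 126, 118 and 123 FPKM in mock, 168, 122 and 127 FPKM in TGFb 1 h and 111, 111 and 110.4 FPKM in TGFb 12 h. All 12 h libraries were below all mock and 1 h libraries. BST2 fell by 0.31 on the log2 scale at 12 h against 1 h (SE 0.089; limma adjusted p = 0.0115), and by 0.17 without TGFb 1 h replicate 1, its highest library, where the call held (adjusted p at most 0.0319 in any omission). The call was lost when the 2 compared groups were fitted alone (adjusted p = 0.0943). At 12 h against mock the log2 change was -0.15 and was not called (adjusted p = 0.213), although it was without that 1 h library (adjusted p = 0.00839).

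IFITM1 had 3.37, 2.62 and 2.8 FPKM in TGFb+FT895 12 h. In mock it had 1.89, 2.22 and 2.73 FPKM, in TGFb 1 h 2.08, 1.39 and 1.96 FPKM and in TGFb 12 h 2.39, 2.93 and 2.93 FPKM. TGFb 12 h and TGFb 1 h did not overlap, whereas the FT895 groups of the 2 times did. Under TGFb the log2 change of 0.42 at 12 h against 1 h (limma adjusted p = 0.0141) was lost without TGFb 1 h replicate 2 (0.0624) or TGFb 12 h replicate 3 (0.05). IFITM1, at chr11:313506-315272 on the plus strand, shares 351 exonic bases with IFITM2 on the same strand, and the IFITM genes are near-identical over part of their length, so their split is uncertain. IFITM3, which blocks entry in endosomes, averaged 8.59 ± 2.32 FPKM in TGFb 12 h and 8.56 ± 0.492 FPKM in mock (SD, n = 3 each) and was called in no comparison.

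Of the IFI genes and SAMD9, IFI35 was the one that moved. In TGFb+FT895 12 h it had 4.41, 4.51 and 4.58 FPKM. IFI35 had 6.07, 6.03 and 6.07 FPKM in mock, 8.33, 7.71 and 8.14 FPKM in TGFb 1 h and 3.801, 3.802 and 4.901 FPKM in TGFb 12 h. The 3 times did not overlap in TGFb cells, with the 1 h group highest. IFI35 fell by 0.46 at 12 h against mock (SE 0.11; limma adjusted p = 0.00467) and by 0.82 at 12 h against 1 h (adjusted p = 4.53e-05), on the log2 scale, and kept both calls in every omission of 1 library. Its log2 change at 1 h against mock, 0.36, was not called (adjusted p = 0.058), but it was under median-of-ratios scaling (adjusted p = 0.0446) and without TGFb+FT895 1 h replicate 3 (adjusted p = 0.0137). IFI35 lies at chr17:43006725-43014456 on the plus strand, and its window held 1 GAS match and no ISRE match. IFI6, IFI44, IFI44L and SAMD9 were called in no comparison, with means over all libraries of 6.63, 2.96, 1.73 and 1.34 FPKM.

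**Figure D3:**
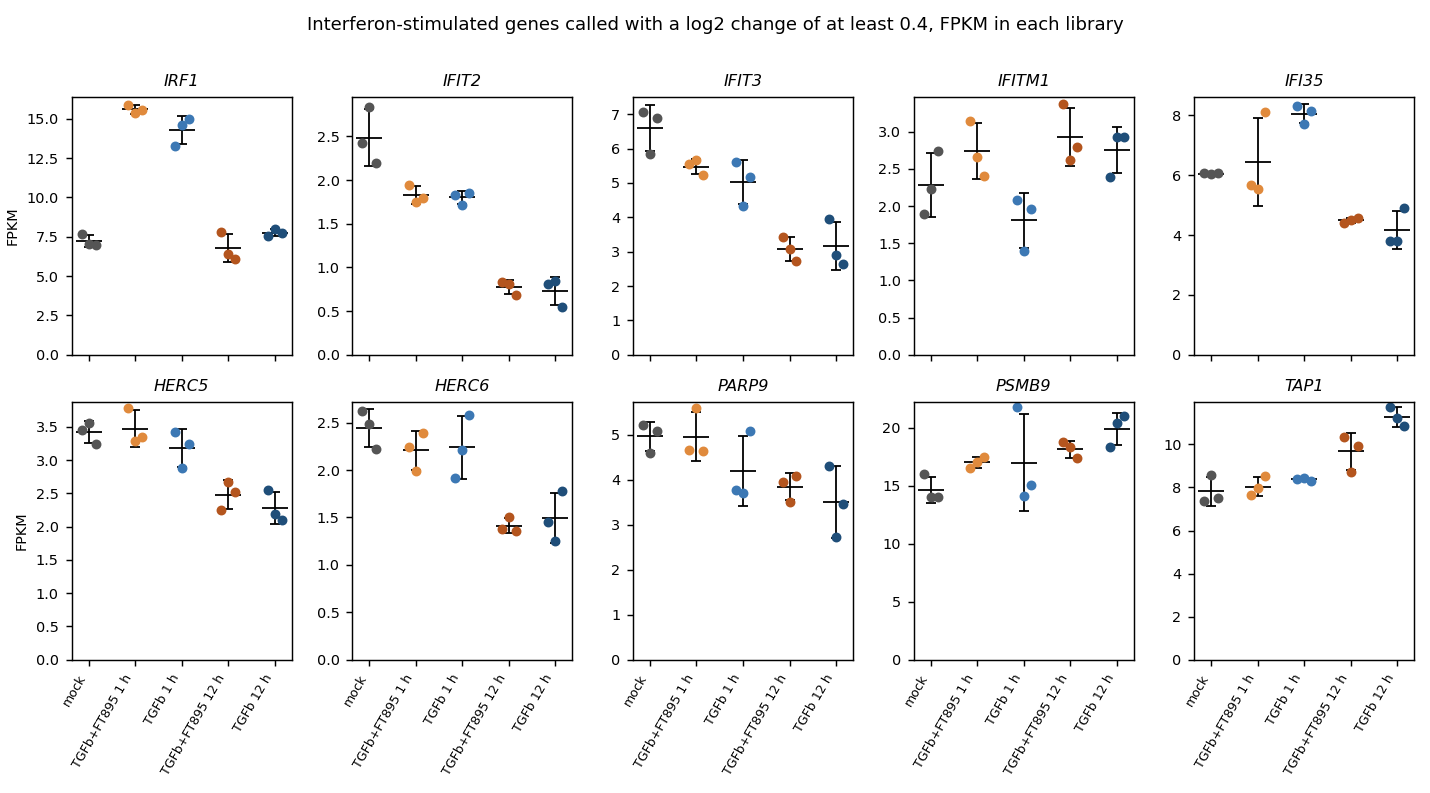
FPKM in each library (points) for the 10 interferon-stimulated genes called with a log2 change of at least 0.4 in some comparison, with the group mean and SD (bars, n = 3). Groups run from mock through 1 h to 12 h, with TGFb+FT895 left of TGFb at each time. IRF1 is high only in the 1 h groups, and IFIT2, IFIT3, HERC5 and HERC6 are low in both 12 h groups.

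Among the members around ISG15 and ADP-ribose transfer, most fell at 12 h, while ISG15 and PARP14 were not called at 12 h against mock. Of the 7 tested, 5 were down at 12 h against mock (HERC5, HERC6, TRIM25, PARP9 and DTX3L) and none was up, where 24.5% of all tested rows were called down and 14.2% up. The median log2 change of the 7 was -0.39, and that of all tested rows -0.08. Because the members were chosen with earlier results of these data known, these values are descriptions only. ISG15 itself had 18.6, 19.4 and 27.3 FPKM in TGFb+FT895 1 h and 13.8, 15.4 and 17.7 FPKM in TGFb+FT895 12 h. ISG15 had 19.3, 18.3 and 17.4 FPKM in mock, 26.2, 20.4 and 18.8 FPKM in TGFb 1 h and 16, 18.4 and 19.6 FPKM in TGFb 12 h. Its groups overlapped, and the log2 change at 12 h against mock was -0.03 (95% confidence interval -0.33 to 0.27).

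HERC5, the main human ISG15 ligase, had 3.79, 3.29 and 3.34 FPKM in TGFb+FT895 1 h and 2.24, 2.68 and 2.52 FPKM in TGFb+FT895 12 h. It had 3.45, 3.56 and 3.24 FPKM in mock, 3.42, 2.87 and 3.25 FPKM in TGFb 1 h and 2.55, 2.195 and 2.096 FPKM in TGFb 12 h. All 12 h libraries lay below all others. HERC5 fell by 0.43 on the log2 scale at 12 h against mock (SE 0.083; limma adjusted p = 0.000842) and by 0.35 at 12 h against 1 h (adjusted p = 0.00369). HERC6, its neighbour on chromosome 4 and the ISG15 ligase of mice, had 2.25, 1.99 and 2.39 FPKM in TGFb+FT895 1 h and 1.38, 1.502 and 1.36 FPKM in TGFb+FT895 12 h. It had 2.63, 2.48 and 2.23 FPKM in mock, 1.92, 2.21 and 2.58 FPKM in TGFb 1 h and 1.45, 1.25 and 1.77 FPKM in TGFb 12 h, so that the 12 h libraries again lay below all others. HERC6 fell by 0.47 on the log2 scale at 12 h against mock (SE 0.10; adjusted p = 0.00159). The 2 genes kept these calls in every omission of 1 library. HERC5 lies at chr4:88457117-88506163 and HERC6 at chr4:88378739-88443111, both on the plus strand.

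TRIM25, which attaches ubiquitin to the sensor RIG-I, averaged 8.05 ± 0.259 FPKM in TGFb 12 h and 10.9 ± 0.216 FPKM in mock (SD, n = 3 each), a log2 change of -0.39 (limma adjusted p = 0.00313) that held in every omission of 1 library. PARP9, an ADP-ribosyltransferase that works with the ubiquitin ligase DTX3L, had 4.66, 5.59 and 4.63 FPKM in TGFb+FT895 1 h and 3.94, 3.51 and 4.09 FPKM in TGFb+FT895 12 h. It had 5.23, 4.602 and 5.08 FPKM in mock, 3.78, 3.71 and 5.08 FPKM in TGFb 1 h and 4.32, 2.73 and 3.46 FPKM in TGFb 12 h. Mock and TGFb 12 h did not overlap. The log2 change of -0.42 (adjusted p = 0.0159) was lost when mock replicate 1 (0.0564) was left out, and likewise TGFb 12 h replicate 2 (0.0865). DTX3L averaged 9.16 ± 0.604 FPKM in TGFb 12 h and 11.1 ± 0.113 FPKM in mock (SD, n = 3 each), a log2 change of -0.25 (adjusted p = 0.0154) that was lost without TGFb 12 h replicate 3 (0.0736). PARP14, a relative that modifies host and viral proteins, was called down at 1 h against mock (log2 change -0.30, adjusted p = 0.0487), a call lost in 13 of 15 omissions with adjusted p up to 0.145.

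The windows of HERC5 and PARP9 are shown because they are those of fallen members whose starts are arranged differently. The HERC5 window, chr4:88456869-88457168 on the plus strand, held 3 ISRE matches, in capitals as their reverse complement, at -125 to -116, -119 to -110 and -74 to -65, of which the first and second overlap. PARP9 and DTX3L are read in opposite directions from RefSeq starts 38 bases apart. PARP9 has 2 windows, and the ISRE match in the one shown, chr3:122564251-122564550 on the minus strand, lies at -41 to -32 from the PARP9 start, and the same 10 bases, chr3:122564332-122564341, lie at -6 to 4 from the DTX3L start. PARP9 is annotated at chr3:122527924-122564577, and the 2 genes share 217 exonic bases on opposite strands. The windows of HERC6 and TRIM25, which also fell, held neither set of letters.
HERC5: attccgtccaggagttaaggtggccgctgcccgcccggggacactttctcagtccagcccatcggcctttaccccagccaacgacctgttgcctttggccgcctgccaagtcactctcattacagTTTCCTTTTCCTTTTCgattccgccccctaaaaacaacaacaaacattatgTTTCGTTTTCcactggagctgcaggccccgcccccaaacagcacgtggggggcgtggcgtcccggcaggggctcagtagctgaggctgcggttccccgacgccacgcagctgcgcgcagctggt
PARP9: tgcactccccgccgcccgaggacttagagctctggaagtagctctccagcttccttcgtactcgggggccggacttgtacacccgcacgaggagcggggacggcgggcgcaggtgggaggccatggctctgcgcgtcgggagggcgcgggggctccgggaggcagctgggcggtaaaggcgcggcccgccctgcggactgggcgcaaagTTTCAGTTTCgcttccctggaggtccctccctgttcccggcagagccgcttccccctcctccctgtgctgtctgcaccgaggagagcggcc

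Both members called up at 12 h against mock, PSMB9 and TAP1, belong to antigen processing. The remaining member of that group, PSMB8, was not called, and 14.2% of all tested rows were called up. TAP1 had 7.64, 7.97 and 8.51 FPKM in TGFb+FT895 1 h. It had 7.36, 8.59 and 7.498 FPKM in mock, 8.39, 8.43 and 8.32 FPKM in TGFb 1 h and 11.7, 11.3 and 10.8 FPKM in TGFb 12 h. All TGFb 12 h libraries lay above all mock and 1 h libraries. TAP1 rose by 0.48 on the log2 scale at 12 h against mock (SE 0.072; limma adjusted p = 0.000105) and by 0.39 at 12 h against 1 h (adjusted p = 0.000677).

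PSMB9 had 16.5, 17.1 and 17.5 FPKM in TGFb+FT895 1 h and 18.8, 18.3 and 17.3 FPKM in TGFb+FT895 12 h. It had 15.96, 14.03 and 14 FPKM in mock, 21.8, 14.1 and 15.1 FPKM in TGFb 1 h and 18.3, 20.4 and 20.97 FPKM in TGFb 12 h. TGFb 12 h lay above mock with no overlap, while TGFb 1 h replicate 1 was the highest library of all. PSMB9 rose by 0.42 on the log2 scale at 12 h against mock (SE 0.12; limma adjusted p = 0.0112), and by 0.42 at 12 h against 1 h once TGFb 1 h replicate 1 was left out (adjusted p = 0.000295), where the full set of libraries gave no call. PSMB8 had 32.8, 33.1 and 37.5 FPKM in TGFb+FT895 1 h and 29.99, 28.2 and 33.1 FPKM in TGFb+FT895 12 h. PSMB8 had 33.7, 35.1 and 31.3 FPKM in mock, 44.2, 33.95 and 35.1 FPKM in TGFb 1 h and 30.3, 34.9 and 36.5 FPKM in TGFb 12 h, with a log2 change of 0.02 at 12 h against mock (95% confidence interval -0.19 to 0.23). These groups overlapped, and PSMB8 shares 20.6% of its exonic bases with PSMB8-AS1 on the other strand. PSMB9 at chr6:32844136-32859585 on the plus strand and TAP1 at chr6:32845209-32853978 on the minus strand are read in opposite directions from RefSeq starts 488 bases apart. One of the 2 TAP1 windows, chr6:32853655-32853954 on the minus strand, is shown as that of a member that rose, and it held 2 overlapping ISRE matches, in capitals as their reverse complement, at -134 to -125 and -128 to -119. The other TAP1 window held 1 GAS match and no ISRE match. The window of PSMB9, which also rose, held neither set of letters.
TAP1: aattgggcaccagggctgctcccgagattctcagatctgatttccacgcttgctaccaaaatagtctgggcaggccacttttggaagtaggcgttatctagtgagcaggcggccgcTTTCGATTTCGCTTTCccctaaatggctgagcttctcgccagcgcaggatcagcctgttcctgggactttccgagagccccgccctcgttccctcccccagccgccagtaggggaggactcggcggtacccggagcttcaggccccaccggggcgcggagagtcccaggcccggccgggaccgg

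The rest of the pathway was read from lists of ligands, receptors, sensors, feedback regulators and MHC class I genes. None of 10 interferon genes passed the filter. IFNA1, IFNA2, IFNG, IFNL1 and IFNL2 were listed at 0 in all libraries, IFNB1, IFNK, IFNW1 and IFNL3 in 14 of 15, and IFNE, an interferon of epithelia, reached at most 0.315 FPKM.

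Receptor chains moved in opposite directions. IFNAR1 averaged 7.29 ± 0.305 FPKM in TGFb 12 h and 9.03 ± 0.333 FPKM in mock (SD, n = 3 each), a log2 change of -0.28 (limma adjusted p = 0.00158). The signalling chain of the type II receptor, IFNGR2, averaged 13.5 ± 0.774 FPKM in TGFb 12 h and 8.69 ± 0.272 FPKM in mock (SD, n = 3 each) and rose by 0.58 on the log2 scale (adjusted p = 2.22e-05). The ligand-binding chain of that receptor, IFNGR1, averaged 13.4 ± 1.68 FPKM in TGFb 12 h and 17.5 ± 0.0671 FPKM in mock (SD, n = 3 each), with a log2 change of -0.37 (adjusted p = 0.0012). IFNAR2 was not called, with a log2 change of 0.07. Of 8 receptor and JAK-STAT genes tested, 1 was up and 2 (IFNAR1 and IFNGR1) down at 12 h against mock, a share of 37.5% called beside 38.6% of all tested rows. Of 10 genes from nucleic acid sensing to IRF3, none was up and 3 were down (30% beside 24.5% of all rows down), among them the kinases TBK1 (-0.49) and IKBKE (-0.48), in log2 change. IRF3 and MAVS were not called.

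Of 7 feedback regulators tested, 6 were down at 12 h against mock and none was up, where 24.5% of all tested rows were called down. The list was chosen with earlier results of these data known, so this share is a description only. Among the 6, the call of SOCS3 (log2 change -0.26, limma adjusted p = 0.048) was lost in 10 of 15 omissions of 1 library, and that of PIAS1 (-0.25, adjusted p = 0.0287) in 5 of 15. Under median-of-ratios scaling both were lost (adjusted p = 0.141 for SOCS3 and 0.0742 for PIAS1), and under quantile normalization SOCS3 was (adjusted p = 0.154). SOCS3, an inhibitor of JAK kinases, rose by 1.14 on the log2 scale at 1 h against mock (limma adjusted p = 2.37e-06), and its log2 change at 12 h against 1 h was -1.40 (adjusted p = 6.1e-08). SOCS3 thereby had, like IRF1, its highest level at 1 h. IRF2, which competes with IRF1, had a log2 change of -0.47 at 12 h against mock (adjusted p = 0.000416), and the phosphatase PTPN2 one of -0.45 (adjusted p = 0.0191), lost on omission of mock replicate 3 (0.0822) and of TGFb 12 h replicates 2 (0.0894) and 3 (0.0683). Of 16 MHC class I genes 2 were up and 3 down, or 31.2% called beside 38.6% of all rows. The transactivator NLRC5 was up, with a log2 change of 0.41 (adjusted p = 0.00992) that was lost without mock replicate 1 (0.0574). HLA-E, a ligand of natural killer cell receptors, had a log2 change of -0.54 at 12 h against 1 h (adjusted p = 3.41e-06).

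HDAC11, the target of FT895, averaged 2.74 ± 0.193 FPKM in TGFb+FT895 12 h and 2.65 ± 0.356 FPKM in TGFb 12 h (SD, n = 3 each), and SHMT2 averaged 117 ± 7.95 FPKM in TGFb+FT895 12 h and 114 ± 8.82 FPKM in TGFb 12 h (SD, n = 3 each). Neither was called in any comparison. An inhibitor acts on the protein, so the HDAC11 transcript does not check the treatment. BRCC3, the catalytic subunit of BRISC, had a log2 change of -0.58 at 12 h against mock (limma adjusted p = 0.000291). It was the only 1 called there of 6 tested HDAC11, SHMT2 and BRISC genes, or 16.7% beside 38.6% of all rows. With FT895, limma called 0 of 57 tested genes of the pathway and marker lists at either time, where 0.0722% of all rows were called at 1 h and 0.016% at 12 h. An unadjusted p under 0.05 was found for 8 of the 57 at 1 h beside 13.8% of all rows, and for 3 of the 57 at 12 h beside 6.15% of all rows. For the IFNAR1 transcript the FT895 difference at 12 h was -0.00 on the log2 scale (95% confidence interval -0.13 to 0.12). The IFNAR1 protein was not measured, and the labels name no interferon treatment.

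**Figure D4:**
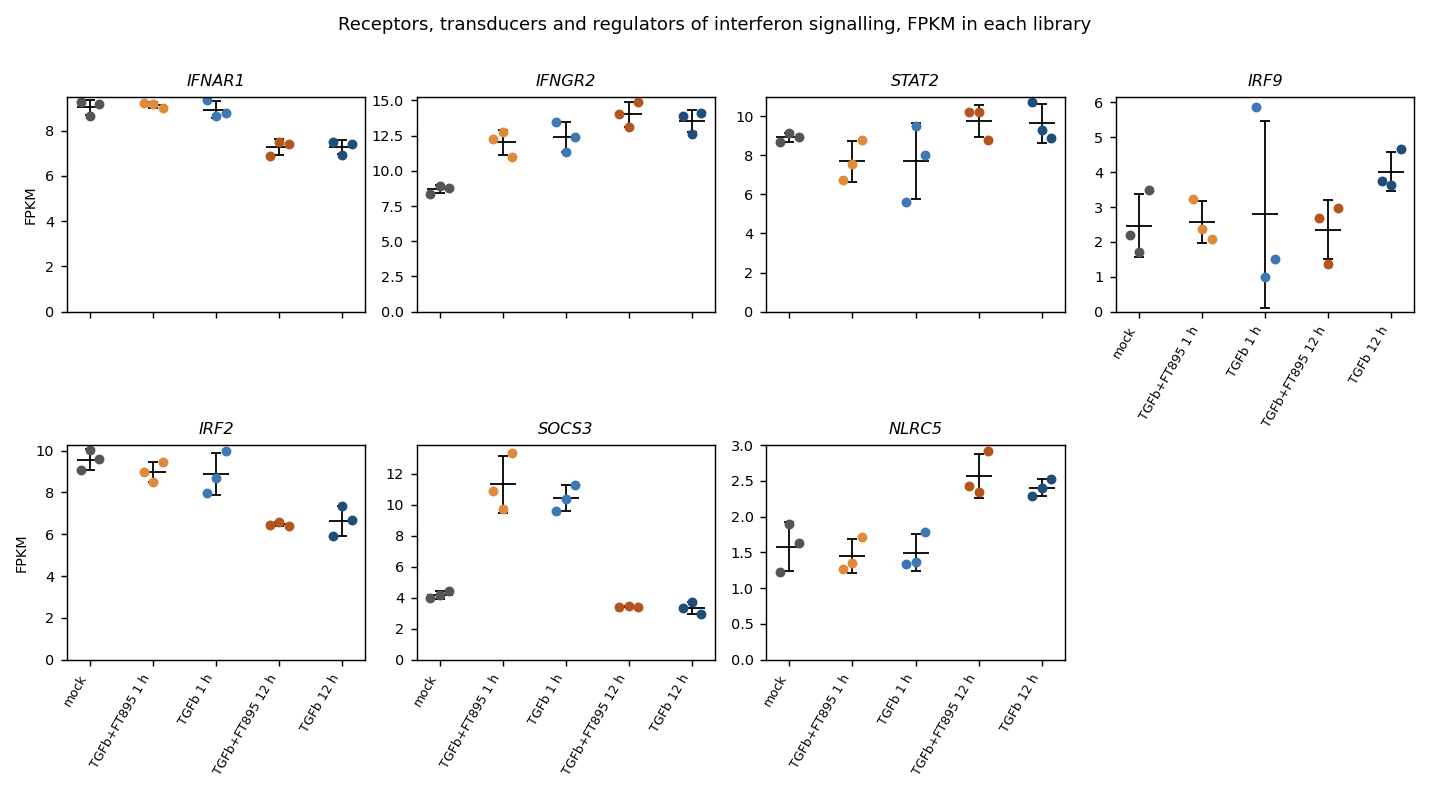
FPKM in each library (points) for receptors, transducers and regulators of interferon signalling, with the group mean and SD (bars, n = 3), in the order mock, 1 h, 12 h and with TGFb+FT895 left of TGFb at each time. IRF2 and IFNAR1 are low in both 12 h groups, NLRC5 is high there, SOCS3 is high in both 1 h groups, and IRF9 spreads widely in TGFb 1 h.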

How the data were processed

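Polyadenylated RNA of HK-2 cells was measured in 15 libraries. Per the submitters' processing notes, HISAT2, StringTie and the build GRCh38 were used. The sources used here give neither versions nor annotation release nor strandedness. The authors deposited FPKM, with 1 column per library, and no per-sample column was left unused. Depth cannot be recovered from them, so no counting interval or detection floor is given. A table row was assigned to a member by its gene identifier and symbol. Coordinates and transcript lengths are from GENCODE v29 on GRCh38, and promoter windows from RefSeq on GRCh38.p14.

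Values were analysed as log2(FPKM + 1), which understates the fold of low genes. Rows with at least 1 FPKM in 3 or more libraries were fitted with limma 3.58.1 in R 4.3.3 (lmFit, then eBayes with a trend, 1 mean per group, all 15 libraries, 10 residual degrees of freedom), after the code was tested on simulated data. A call is a two-sided Benjamini-Hochberg adjusted p under 0.05 over all 12467 tested rows within 1 of 6 comparisons. Lists are described by counts and medians only, and 2 genes left out of them are not reported here. Python 3.11.15 and SciPy 1.17.1 gave the length relations.

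The members and lists were chosen with earlier results of these data known. Values in every library are written out for members called in some comparison with an absolute log2 change of at least 0.4 and for the 6 members with the highest mean. Alternatives covered the pseudocount (0.1 and 0.5), the filter (none, or 0.5 FPKM), 2 other scalings between libraries, library weights, a fit to the compared groups alone, the replicate number as a block, and leaving out each library in turn.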

Additional observations from a re-analysis of the deposited data

How the results depend on the processing

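Counts of called members kept within 1.5 times their value with all 15 libraries under every alternative run, with the following exceptions. For FT895 at 1 h the count of 0 became 3 with library weights, while leaving out any 1 library gave 0 for each of the 3 FT895 comparisons. For TGFb at 1 h against mock the count of 3 became 1 with no filter, 1 under quantile normalization and 7 with library weights (3 up, 4 down), and it ran from 1 to 4 when 1 library was left out. For TGFb at 12 h against 1 h the count of 14 became 7 when only the compared groups were fitted, and it ran from 9 to 15 when 1 library was left out. For TGFb at 12 h against mock, 11 members were called, 9 to 13 when 1 library was left out. No log2 change of a named gene reversed among called values. The causes of these moves were not tested. Of all calls at 1 h against mock, 41.2% were up under the deposited scaling, 57.2% under median-of-ratios scaling and 47.6% under quantile normalization.

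The replicate number was entered as a block. It left 0 members called in each FT895 comparison and gave 2 for TGFb at 1 h against mock, 11 for TGFb at 12 h against mock and 12 for TGFb at 12 h against 1 h. The numbers do not pair the samples: of 30 same-numbered pairs 2 had a correlation of deviations over 0.1 (range -0.137 to 0.113), and 3 of 15 libraries correlated best with their own number.

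Precision is limited by 3 libraries per group, by unknown depth and by 1 library (TGFb 1 h replicate 1) that stands apart. That library enters comparisons using TGFb 1 h directly, and the others through the spread that all 15 libraries share in the fit. Without it, rows called for FT895 at 12 h went from 2 to 44, with 0 members in either fit. For TGFb at 12 h against mock, rows called went from 4814 to 5842 and members from 11 to 13. Members under 1 FPKM, MX1 and IFI27 among them, were not tested. Levels of IRF9, the IFITM genes and members with antisense partners rest on how reads were assigned, which was not given in the sources used here.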

Other observations

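USP18, the ISG15 protease that did not pass the filter, had 0.719, 0.661 and 0.734 FPKM in TGFb+FT895 1 h and 0.436, 0.5797 and 0.725 FPKM in TGFb+FT895 12 h. It had 0.399, 0.4297 and 0.485 FPKM in mock, 0.681, 0.608 and 0.801 FPKM in TGFb 1 h and 0.553, 0.533 and 0.512 FPKM in TGFb 12 h. All libraries of TGFb 1 h lay above all mock libraries, and with no filter limma gave a log2 change of 0.24 at 1 h against mock, which was not called (adjusted p = 0.0619).

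Length bore on the comparisons at 1 h more than on those at 12 h. Spearman's rho between log2 change and transcript length over 11536 genes was -0.392 for TGFb 1 h against mock, -0.131 without TGFb 1 h replicate 1, and 0.02 for TGFb 12 h against mock. Genes are not independent replicates, and these values are descriptions. PSMB9 (2676 bases) and BST2 (1019 bases) were highest in TGFb 1 h replicate 1, and ADAR (7112 bases), PARP14 (8437 bases) and STAT2 (3278 bases) were lowest there. Members did not all follow length. IFI6 (841 bases) was also lowest in that library, and IFIT5 (4015 bases) was highest.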
